A study of Mus musculus with 76 samples.

Results

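The genes for the proteins of the cytosolic ribosome were examined in the hippocampus of tau transgenic mice and their controls. A gene was a member when its single symbol in the array's annotation began with Rpl, Rps or Rplp followed by a digit, with the S6 kinase genes (Rps6k) left out, and each was represented by the probe set with the highest mean signal over all arrays. This gave 71 of the 11807 genes measured, 47 of the large and 24 of the small subunit. RNA of 76 female mice was measured, 1 array per mouse. rTg4510 mice carry a human tau transgene with the P301L mutation behind a tetracycline-responsive element together with the tetracycline transactivator (tTA) driven by the CaMKIIα promoter, which is active in forebrain neurons. Littermates with the transactivator only are called tTA and those with neither transgene DN (double negative), and no group carried the tau transgene without the transactivator. rTg4510 mice were about 1.9 (n = 10), 4.7 (n = 10) and 6.1 months old (n = 6), and tTA and DN mice were about 4.7 (n = 10 each), 6.1 (n = 10 each) and 10.7 months old (n = 5 each).

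A ribosome is built from ribosomal RNA and a set of proteins that are mostly present in 1 copy per particle, and their genes are known for being expressed in step. Their messages are among the most abundant of the cell and mostly begin with a run of pyrimidines at the 5′ end, the terminal oligopyrimidine (TOP) tract, through which translation of these messages answers to the kinase mTOR. Several genes have a close paralogue with a narrower pattern of expression, such as Rpl3l in muscle and Rpl39l in testis. Rplp0, Rps18 and Rpl13a are often used as reference genes in quantitative PCR.

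The start sites are shown first because the TOP tract is the sequence feature the family is known for. RefSeq sequences around the annotated start were matched by gene identifier for 56 of the 71 members (mouse assembly GRCm38.p6). Each line gives 25 bases before the start and 15 from it on, read 5′ to 3′ on the gene's strand, and the capitals mark the longest run of C and T within the 40 bases. Where 2 starts were listed, as for Rps27l, Rpl22 and Rpl3l, the first was taken. In Rplp0, Rps27l, Rpl22 and Rpl39l the marked run ends before the annotated start and lies outside the message. In Rps12 and Rpl3l it begins some bases after the start. A marked run is therefore not by itself a TOP tract. The first 6 genes are those that were higher in rTg4510 than in tTA mice at 6.1 months, and the other 4 are a gene with its paralogue and 2 tissue-restricted paralogues.
Rplp0, chr5:115559442-115559481, plus strand: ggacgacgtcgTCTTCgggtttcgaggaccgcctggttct
Rps9, chr7:3704016-3704055, plus strand: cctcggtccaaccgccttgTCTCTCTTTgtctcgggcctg
Rps27l, chr9:66946061-66946100, plus strand: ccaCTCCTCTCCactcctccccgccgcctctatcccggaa
Rps18, chr17:33955651-33955690, minus strand: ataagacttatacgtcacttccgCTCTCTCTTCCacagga
Rps12, chr10:23787195-23787234, minus strand: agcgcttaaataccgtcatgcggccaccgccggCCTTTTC
Rpl7a, chr2:26910782-26910821, plus strand: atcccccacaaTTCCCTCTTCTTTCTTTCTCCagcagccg
Rpl22, chr4:152325701-152325740, plus strand: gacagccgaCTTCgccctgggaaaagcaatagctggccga
Rpl22l1, chr3:28805483-28805522, plus strand: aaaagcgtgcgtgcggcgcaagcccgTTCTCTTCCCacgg
Rpl3l, chr17:24727801-24727840, plus strand: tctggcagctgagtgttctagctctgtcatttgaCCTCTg
Rpl39l, chr16:10170203-10170242, plus strand: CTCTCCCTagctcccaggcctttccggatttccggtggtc

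Runs of pyrimidines near the start were more frequent among the members than over all protein-coding genes of the table, as a description without a test. Within 20 bases of the start on either side, 23 of 56 members (41.1%) had a run of at least 8 pyrimidines on the gene's strand, against 15.5% of 17492 protein-coding genes. A run of at least 6 was present in 34 of 56 (60.7%), against 36.7%. Both counts include runs that lie wholly before the start, so they are not counts of TOP tracts. In that window Rpl7a had the longest run, with 21 bases, and Rplp0 had 7, which begin at the 3′ end of its printed line. In the 300 bases from 250 before to 50 after the start, read on both strands, the ETS core CCGGAAG was found in 23 members (41.1%) against 11.9% of all protein-coding genes, GGGCGG in 32 (57.1%) against 46.3%, AAGATGGC in 3 (5.36%) against 3.22%, and TATAAA in 7 (12.5%) against 13.3%. A CCGGAAG that runs into an AAGATGGC was counted under both. A match is a description of these letters and not a site.

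All values below are log2 signals made with RMA (robust multi-array average), in which background is removed, the probes of all arrays are brought to a common distribution and the probes of a set are summarised to 1 value. Differences are taken between mice for 1 probe set, and levels of different probe sets serve only to say which are dim. A gene was called when its adjusted p in limma fell below 0.05 over all 22626 probe sets tested, with no fold threshold. Of the 71 members, 63 had a mean log2 signal above 10. The dimmest were Rpl3l at 2.90 and Rpl39l at 3.47, and Rpl14 was measured by a dim probe set at 5.66. Many ribosomal protein genes have processed pseudogenes, 17 members were measured by a probe set of the _x_at class and 7 of the _s_at class, whose probes can match other transcripts, and 3 members (Rpl31-ps12, Rpl34-ps1 and Rps15a-ps6) are themselves annotated as pseudogenes. Values of these are therefore uncertain as to copy.

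Some arrays were extreme in single measures. Mouse 21, a tTA mouse of 6.1 months, had a 3′ minus 5′ difference of the Gapdh control probe sets of 0.44 on the log2 scale, against at most 0.20 in the other 75 mice. The mean of the choroid plexus markers varied from 4.12 to 8.66 between mice, and that of 9 hippocampal neuron markers from 7.60 to 8.39. In 3 mice the arrays had a mean of the 71 members above all others: a DN mouse of 10.7 months at 11.08, mouse 88 (rTg4510, 1.9 months) at 10.98 and mouse 69 (tTA, 4.7 months) at 10.96. Some values moved by over 1.5 times, turned sign or changed a call without 1 of these 4 mice. They are given both ways below for the mean of the members and its SD, median differences over the members and calls of members. SDs of single genes are given with all mice.

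The mean signal of the ribosomal protein genes differed little between genotypes and ages. The mean over the 71 genes was 10.83 ± 0.080 (SD, n = 10) in rTg4510 mice of 1.9 months, 10.80 ± 0.035 (n = 10) at 4.7 months and 10.82 ± 0.054 (n = 6) at 6.1 months. In tTA mice it was 10.79 ± 0.064 (n = 10), 10.79 ± 0.032 (n = 10) and 10.82 ± 0.065 (n = 5) at 4.7, 6.1 and 10.7 months. In DN mice of the same ages it was 10.80 ± 0.054 (n = 10), 10.81 ± 0.029 (n = 10) and 10.90 ± 0.11 (n = 5). The highest and lowest group means lay 0.10 apart. Without the DN mouse of the highest mean they lay 0.060 apart, and the DN mean at 10.7 months was 10.85 ± 0.040 (SD, n = 4). Without mouse 69 they lay 0.12 apart, and the tTA mean at 4.7 months was 10.77 ± 0.029 (n = 9). With all mice, the ranges of all 9 groups overlapped. The median over all probe sets still varied from 5.23 to 5.39 between arrays, with group means of 5.36 in rTg4510 and 5.33 in tTA mice of 6.1 months. As RMA scales the arrays to each other, these values show the members relative to the other transcripts of the tissue and not the amount of ribosomal protein message per cell. In a bulk sample, fewer cells of a type and less RNA per cell cannot be told apart.

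**Figure D1:**
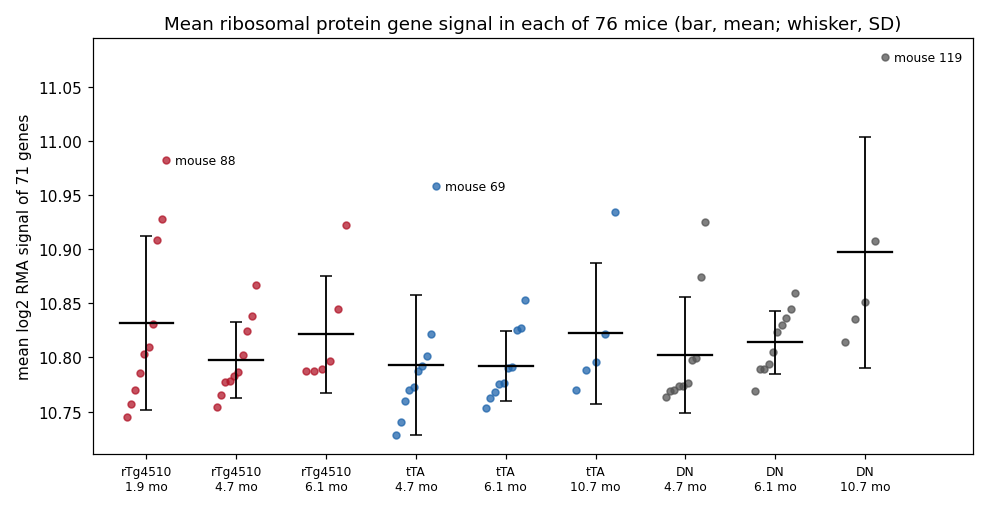
Mean log2 RMA signal of the 71 ribosomal protein genes (vertical axis) in each of 76 mice, by genotype and age group (horizontal axis). Each point is a mouse, the bar is the group mean and the whisker the SD, and the spread of the points sideways has no meaning. The 9 groups overlap, and the 3 numbered mice (DN of 10.7 months, rTg4510 of 1.9 months and tTA of 4.7 months) are the highest, at 11.08, 10.98 and 10.96.

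Single members varied little between mice. Their median SD within groups was 0.081 on the log2 scale, against 0.13 over all 22626 probe sets and 0.077 over the 1087 probe sets with a mean signal above 10. Rps6, the ribosomal protein phosphorylated by the S6 kinases, had the smallest SD (0.040), and the dim Rpl39l had the largest (0.17). For 60 of the 71 genes the 9 group means lay within 0.2 of each other, and the median of this range was 0.13. The widest range was that of Rps27l, at 0.29, followed by Rpl22l1 at 0.28 and Rpl14 at 0.27.

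The members moved together from mouse to mouse. After each group's mean was taken off, the median correlation between pairs of members over the 76 mice was 0.53, and 96.2% of pairs were above 0. For the 72 mitochondrial ribosomal protein genes, which belong to a separate ribosome, the median was 0.15. It was 0.057 for 29 translation initiation factors, 0.046 for 16 elongation factors and 0.078 for 35 ribosome biogenesis genes. The first axis of variation held 49.0% of the within-group variance of the 71 members, and 45.6% without the DN mouse of the highest mean. These correlations share arrays, RNA preparations and, for several members, probes that match more than 1 copy, and they are given as descriptions. The other lists had lower mean signals than the members, and the part of signal level in the correlations was not tested.

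Of the 71 genes, 64 correlated above 0.5 with the mean of the other 70. Rps14 (0.89), Rplp0 (0.89) and Rps15 (0.85) were highest. The exceptions were Rpl3l (-0.041), Rpl39l (0.014), Rps6 (0.18), Rpl7l1 (0.31), Rpl14 (0.40), Rps27l (0.44) and Rps3a1 (0.48). Rpl3l, Rpl39l, Rpl7l1 and Rps27l are paralogues of a main ribosomal protein, and Rpl3l, Rpl39l and Rpl14 were the dimmest. Not all paralogues were among the exceptions, as Rpl22l1 was at 0.54.

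**Figure D2:**
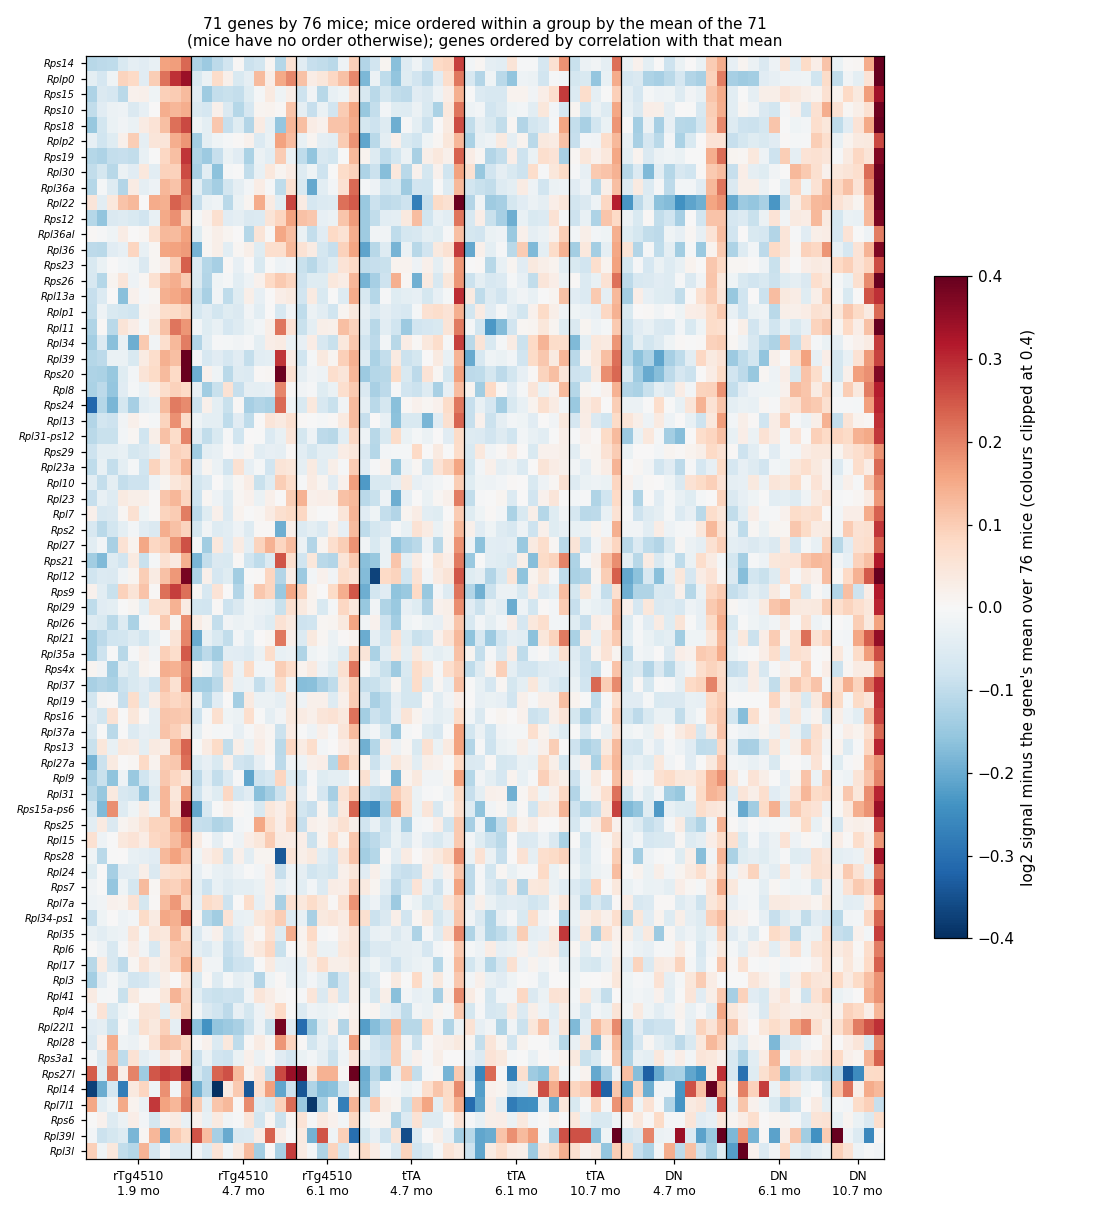
Log2 signal of each member minus that gene's mean over the 76 mice (colour, clipped at 0.4 either way), with 71 genes as rows ordered by their correlation with the mean of the others and the mice as columns. Mice are ordered within each of the 9 groups by the mean of the members. Single columns are red almost from top to bottom, most of all that of the DN mouse at the far right. Rps27l, Rpl14, Rpl7l1, Rps6, Rpl39l and Rpl3l at the bottom follow the other members least, with correlations from 0.44 (Rps27l) to -0.041 (Rpl3l).

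The mice with the highest means were picked by the mean of these correlated members, so nearly all members being high in them follows from the choice. It was also not particular to them. Of 71 members, 70 were above the group's mean in mouse 7 (rTg4510, 6.1 months) and 69 in mouse 70 (DN, 4.7 months). In the highest tTA mouse of 10.7 months all 71 were. The genes that departed most differed between the mice with the highest means. In the DN mouse of the highest mean, 68 of 71 members were above the mean of the other 4 DN mice of 10.7 months, by a median of 0.23, and Rplp0 (0.46), Rpl22 (0.46) and Rps18 (0.41) departed most. In mouse 69, 70 of 71 were above the other tTA mice of 4.7 months, by a median of 0.18, with Rpl22 (0.47) first. In mouse 88, 69 of 71 were above the other rTg4510 mice of 1.9 months, by a median of 0.15, but here Rpl22l1 and Rps20 (both 0.41) and Rpl39 (0.39) departed most. Mouse 37 (rTg4510, 4.7 months), picked out after its values were seen, had Rpl22l1 (0.50), Rps20 (0.43) and Rpl39 (0.33) high with only 45 of 71 members above the other mice, and Rps28 low (-0.34). The choroid plexus mean was 5.31, 4.33 and 7.21 in the DN mouse and mice 69 and 88, and the Gapdh 3′ minus 5′ difference was 0.18, 0.18 and 0.067. The part of these in the departures was not tested.

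rTg4510 and tTA mice differ by the tau transgene, and at 4.7 months no ribosomal protein gene differed past the threshold. No member was called, against a background of 7.47% of all 22626 probe sets (limma, Benjamini-Hochberg adjusted p). Of the 71, 2 had an unadjusted p under 0.05: Rps27l, a paralogue of Rps27 that is induced by p53, with a difference of 0.16 ± 0.069 (SE, adjusted p = 0.17), and Rpl15, with 0.066 ± 0.029 (adjusted p = 0.18). The third smallest p was that of Rpl9 (-0.067 ± 0.037, adjusted p = 0.32). The differences ran from -0.12 (Rpl14) to 0.16 (Rps27l), with a median of 0.0068 against -0.016 over all probe sets, and 0.024 without mouse 69. The median SE was 0.038, and the 95% intervals of all members lay between -0.28 and 0.30.

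At 6.1 months, 6 of the 71 members were higher in rTg4510 than in tTA mice and none was lower. This is 8.45% of the members, against 12.6% of all probe sets called in either direction and 5.54% called higher, and against 17.8% of the 1087 bright probe sets in either direction. The 6 were Rplp0, Rps27l, Rps9, Rps12, Rps18 and Rpl7a, and their differences corresponded to signals 6.79% to 18.01% higher. After each array was centred on its median the calls were 2 higher (Rplp0 and Rps27l) and 1 lower, and after quantile normalisation 5 higher and 1 lower (Rpl14 in both, named after its values were seen), with the direction of the 6 genes kept. Of all probe sets, 14% were called after centring and 12.8% after quantile normalisation. Over all 71 the median difference was 0.027, against -0.016 over all probe sets, and 51 were above 0.

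Rplp0, the central protein of the ribosomal stalk that binds elongation factors, had signals of 10.86, 10.93 and 11.02 (lowest, median, highest) in the 6 rTg4510 mice. The 10 tTA mice ran from 10.67 over 10.78 to 10.83, so every rTg4510 mouse lay above every tTA mouse. The difference was 0.16 ± 0.037 (SE, adjusted p = 0.0044). It stayed past the threshold in each of the 26 fits that left out 1 mouse of this age, with differences between 0.14 and 0.17. With all 9 groups in 1 fit it was not called against tTA (adjusted p = 0.054) or DN mice (adjusted p = 0.052). Its partners in the stalk, Rplp1 and Rplp2, had differences of -0.021 ± 0.034 and 0.039 ± 0.042 (adjusted p = 0.78 and 0.64).

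Rps27l had the largest difference, 0.24 ± 0.073 (adjusted p = 0.028). Its signals were 8.30, 8.44 and 8.69 (lowest, median, highest) in rTg4510 mice and 8.03, 8.25 and 8.52 in tTA mice, so the groups overlapped, and 2 of the 6 rTg4510 mice lay above every tTA mouse. The other probe sets of the gene gave 0.24 and 0.27 (adjusted p = 0.0087 and 0.011). Without rTg4510 mouse 7 or 10 the difference was 0.20 in both cases, with adjusted p = 0.10.

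The other 4 were small subunit proteins Rps9, Rps12 and Rps18 and the large subunit protein Rpl7a. Rps12 and Rps18 were measured by _x_at probe sets and Rps9 by an _s_at probe set, so their values are uncertain as to copy. Rps9 had a mean of 10.31 ± 0.091 (SD) in rTg4510 and 10.17 ± 0.084 in tTA mice, with a difference of 0.14 ± 0.043 (SE, adjusted p = 0.028). Rps12 differed by 0.13 ± 0.042 (adjusted p = 0.040), and its second probe set by 0.078 (adjusted p = 0.24). Rps18 differed by 0.13 ± 0.041 (adjusted p = 0.036), although no rTg4510 mouse lay above every tTA mouse. Rpl7a differed by 0.095 ± 0.031 (adjusted p = 0.042). All 6 rTg4510 mice were above the tTA median for each of these genes. The number of members called fell to 1 without rTg4510 mouse 10, to 2 without rTg4510 mouse 7 or 12, and to 3 without tTA mouse 15, 17, 19 or 20.

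**Figure D3:**
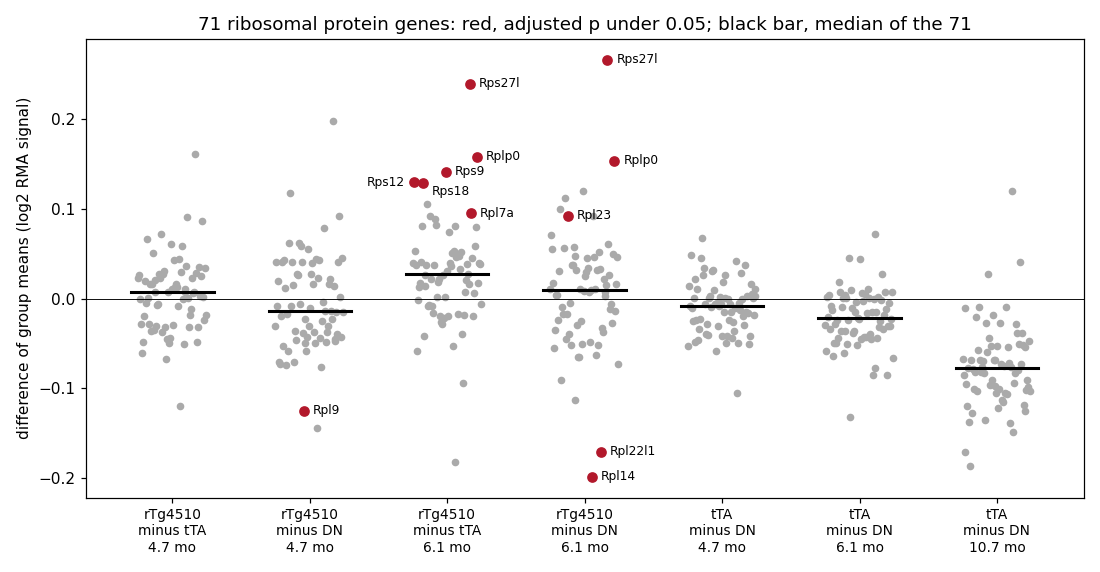
Difference of group means in log2 RMA signal (vertical axis) for the 71 members in the 7 comparisons between genotypes of 1 age (horizontal axis). Each point is a gene, red where the adjusted p was below 0.05, and the black bar is the median of the 71. Called genes appear in 3 comparisons, most of them at 6.1 months, where Rps27l and Rplp0 are called against both controls. At 10.7 months 68 of the 71 points lie below 0 and none is red.

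Against DN mice, which lack both transgenes, Rpl9 was the only member called at 4.7 months. It was lower in rTg4510 mice, and 1 of 71 compares with 13.3% of all probe sets called in either direction and 6.83% called lower. Rpl9, a large subunit protein, ran from 11.50 over 11.65 to 11.80 (lowest, median, highest) in rTg4510 mice and from 11.70 over 11.77 to 11.89 in DN mice. The groups overlapped, with 8 of 10 rTg4510 mice below every DN mouse, and the difference was -0.13 ± 0.037 (SE, adjusted p = 0.020). The second probe set of Rpl9 gave -0.098 (adjusted p = 0.26). Rps27l was next, at 0.20 ± 0.069 (adjusted p = 0.052), and its other probe sets gave 0.24 and 0.22 (adjusted p = 0.022 and 0.0085). tTA mice lay between, with Rpl9 at 11.72 ± 0.086 (SD, n = 10).

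At 6.1 months, 5 members were called against DN mice, 3 higher and 2 lower in rTg4510. The background was 17% in either direction, 7.17% higher and 9.85% lower. After each array was centred on its median, 1 was called higher (Rps27l) and 4 lower (Rpl22l1, Rpl14, Rpl3 and Rpl37), of which Rpl3 and Rpl37 are named after their values were seen. Over all probe sets 19% were called after centring, and of these 4296 only 1266 were higher, so most calls there were also lower. The rTg4510 mice are the same as in the comparison with tTA. Rplp0 differed by 0.15 ± 0.037 (SE, adjusted p = 0.0041), and 4 of 6 rTg4510 mice lay above the highest DN mouse, at 10.902. With centred arrays this Rplp0 difference was 0.12 and the adjusted p 0.057. Rps27l differed by 0.27 ± 0.073 (adjusted p = 0.011), with DN signals of 7.998, 8.21 and 8.40 (lowest, median, highest). Rpl23, a large subunit protein that can bind MDM2, differed by 0.092 ± 0.032 (adjusted p = 0.047) on a probe set of the _x_at class, and its other probe sets gave 0.036 and 0.039 (adjusted p = 0.78 and 0.55). Rpl23 was not past the threshold in 15 of the 26 fits without 1 mouse, and its difference was 0.057 (adjusted p = 0.31) after centring and 0.067 (adjusted p = 0.17) after quantile normalisation. Without tTA mouse 21, which is in the fit but not in the difference, 7 members were called, with Rps9 and Rps18 added. In that fit 19% of all probe sets were called in either direction, against 17% with all mice. The number called fell to 3 without DN mouse 29 or 80 or without rTg4510 mouse 10.

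Rpl22l1, the paralogue of the rRNA-binding protein Rpl22, was lower in rTg4510 mice of 6.1 months than in DN mice. Its signals were 10.13, 10.35 and 10.46 (lowest, median, highest) in rTg4510 mice and 10.44, 10.49 and 10.63 in DN mice, so 4 of the 6 rTg4510 mice lay below every DN mouse. The difference was -0.17 ± 0.046 (SE, adjusted p = 0.0089), and it remained called in all 26 fits without 1 mouse. Without the 6.1 month mice numbered 75 and above it was -0.15 (adjusted p = 0.079). The tTA mice lay between at 10.43 ± 0.071 (SD, n = 10), and neither the difference of rTg4510 from tTA (-0.094 ± 0.046, adjusted p = 0.21) nor that of tTA from DN (-0.077 ± 0.040, adjusted p = 0.34) passed.

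Rpl22 itself leaned the other way. Its probe set of highest signal was at 9.06 ± 0.14 (SD, n = 6) in rTg4510 and 8.95 ± 0.14 (n = 10) in DN mice of 6.1 months, a difference of 0.11 ± 0.061 (SE) that was not called (adjusted p = 0.24). The second probe set of Rpl22 gave 0.16 against DN at 6.1 months (adjusted p = 0.026) and 0.14 at 4.7 months (adjusted p = 0.042), and -0.00013 and -0.057 against tTA. Rpl14, the other gene that was lower against DN at 6.1 months, differed by -0.20 ± 0.065 (adjusted p = 0.034) on its dim probe set, and 5 of 6 rTg4510 mice lay below every DN mouse. Against tTA at that age Rpl14 differed by -0.18 ± 0.065 (adjusted p = 0.066).

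**Figure D4:**
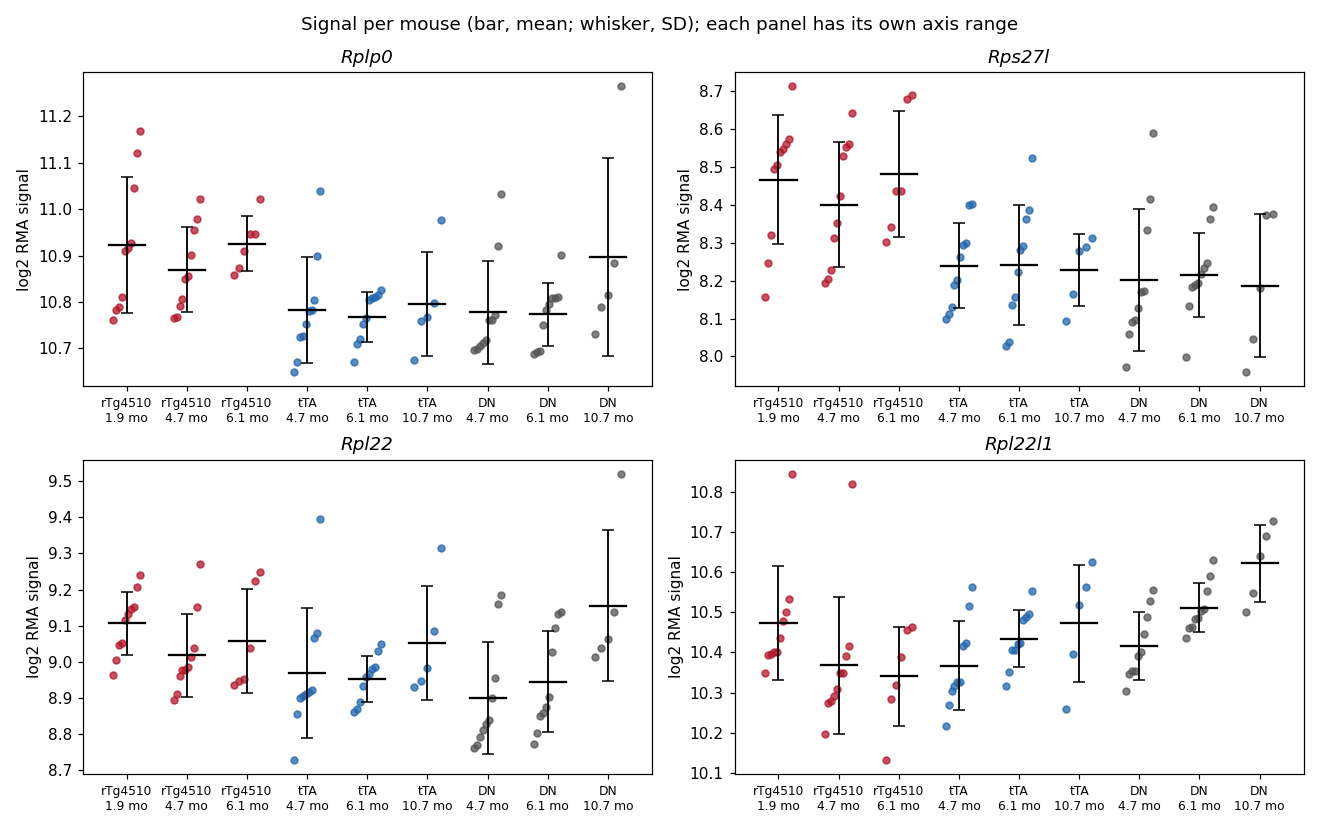
Log2 RMA signal (vertical axes, each with its own range) of Rplp0, Rps27l, Rpl22 and Rpl22l1 in each mouse, by genotype and age group (horizontal axes); bars are means and whiskers SDs. At 6.1 months all 6 rTg4510 mice are above all 10 tTA mice for Rplp0, while for Rps27l the groups overlap, and Rpl22l1 is lowest in rTg4510 and highest in DN mice.

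tTA and DN mice differed in no ribosomal protein gene past the threshold at any age. The counts were 0 of 71 at 4.7, 6.1 and 10.7 months, against 3.98%, 5.25% and 0.875% of all probe sets, and the unadjusted p was under 0.05 for 0, 3 and 1 members. Over the 71 members the median difference at 4.7 months was -0.0078, and -0.028 without mouse 69. At 4.7 months the 3 smallest p were those of Rpl9 (-0.058 ± 0.037, SE), Rpl10 (-0.053 ± 0.034) and Rpl39l (-0.10 ± 0.070), with adjusted p = 0.55, 0.56 and 0.58. At 6.1 months they were those of Rpl29 (-0.085 ± 0.032), Rpl31-ps12 (-0.066 ± 0.028) and Rpl7l1 (-0.13 ± 0.057), with adjusted p = 0.15, 0.22 and 0.22. Markers of dentate granule cells were lower in tTA than in DN mice in 7 of 8 genes at 6.1 months.

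At 10.7 months the members lay mostly on one side without any passing. In 68 of 71 the tTA mean was below the DN mean, with a median difference of -0.077 against -0.0014 over all probe sets, and 49.3% of all probe sets were above 0. The median SE was 0.070 with 5 mice per group. The smallest p was that of Rpl36a, at -0.19 ± 0.080 (adjusted p = 0.52). The DN mean of the 71 members was raised by the mouse of the highest mean, and without it 56 of 71 lay below, with a median of -0.032. The tTA mean was likewise raised by the highest tTA mouse of this age, at 10.93, with all 71 members above its group's mean. Leaving out only the DN mouse shrinks the difference from 1 side, and leaving out both mice was not tested. Of the 72 mitochondrial ribosomal protein genes 11 were above 0, with a median of -0.051, against 49.0% of the bright probe sets. The members are strongly correlated from mouse to mouse, so these counts do not stand for that many separate observations.

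With age, no member was called in any genotype (limma F test over 3 ages). The background was 2.54% of probe sets in rTg4510, 0.243% in tTA and 0.305% in DN mice, and 1, 1 and 18 members had an unadjusted p under 0.05. Between single pairs of ages, Rpl7l1 alone was called, in rTg4510 mice between 1.9 and 6.1 months (-0.23 ± 0.066, SE, adjusted p = 0.044, with 3.57% of all probe sets called), and no member was called there without mouse 88. By the F test, in rTg4510 mice the smallest p was that of Rpl7l1, a paralogue of Rpl7 linked to large subunit assembly (adjusted p = 0.088). Its means were 7.52 ± 0.11 (SD, n = 10), 7.49 ± 0.10 (n = 10) and 7.29 ± 0.19 (n = 6) at 1.9, 4.7 and 6.1 months. In tTA mice it was also the member of smallest p (adjusted p = 0.13), with 7.46 ± 0.088 (n = 10), 7.27 ± 0.13 (n = 10) and 7.46 ± 0.096 (n = 5) at 4.7, 6.1 and 10.7 months, so the level at 6.1 months was the lowest in both. In DN mice of these 3 ages it stood at 7.43 ± 0.13, 7.40 ± 0.065 and 7.43 ± 0.075. The next members in rTg4510 mice were Rps18, Rpl23, Rpl12, Rpl22l1 and Rps9 (adjusted p = 0.46, 0.47, 0.49, 0.50 and 0.53), and in tTA mice Rpl37, Rpl39l, Rpl31-ps12, Rpl30 and Rpl22l1 (0.51, 0.53, 0.59, 0.65 and 0.68).

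In DN mice, 68 of 71 members were higher at 10.7 than at 4.7 months, by a median of 0.088 against -0.0006 over all probe sets, and without the mouse of the highest mean 63 were, by a median of 0.046. Of the 72 mitochondrial ribosomal protein genes 61 were higher, by a median of 0.060, and 64.6% of the bright probe sets were above 0. Rpl22l1 had the smallest p (adjusted p = 0.097), with 10.42 ± 0.085 (SD, n = 10), 10.51 ± 0.062 (n = 10) and 10.62 ± 0.095 (n = 5) at 4.7, 6.1 and 10.7 months. Rpl12, Rps20, Rpl30, Rpl31-ps12 and Rps23 followed (adjusted p = 0.13, 0.21, 0.21, 0.22 and 0.26), and Rpl12 differed by 0.25 ± 0.063 (SE) between the oldest and youngest DN mice. In tTA mice 55 of 71 were higher at 10.7 than at 4.7 months, with a median of 0.024, and 67 were without mouse 69, with a median of 0.041. The highest tTA mouse of 10.7 months, at 10.93, was kept in both. With all mice, 49.7% of all probe sets and 63.7% of the bright ones were above 0 between these ages. rTg4510 mice were not measured at 10.7 months. Their members were lower at 4.7 than at 1.9 months in 62 of 71 cases (median -0.036), and in 56 without mouse 88 (median -0.021). From 4.7 to 6.1 months 60 of 71 were higher (median 0.026). Of all probe sets, 48.2% were above 0 from 1.9 to 4.7 months and 47.7% from 4.7 to 6.1 months. Over the whole span from 1.9 to 6.1 months 32 of 71 were higher, with a median of -0.0037, and 42 without mouse 88, with a median of 0.0092. Here 46.9% of all probe sets were above 0. As the members are correlated from mouse to mouse, the counts with age do not stand for that many separate observations.

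Whether the genotype differences themselves changed with age was tested as an interaction. The rTg4510 minus tTA difference changed between 4.7 and 6.1 months for 0 of 71 members and 0% of all probe sets (limma), with 1 member at an unadjusted p under 0.05, Rpl27a (0.093 ± 0.044, SE, adjusted p = 0.69). The 6 calls at 6.1 months and 0 at 4.7 months are therefore not shown to differ between the ages. Rplp0 already stood at 0.087 ± 0.049 at 4.7 months, and in the rTg4510 mice of 1.9 months, for which no control of that age was measured, it was at 10.92 ± 0.15 (SD, n = 10). The tTA minus DN difference changed among its 3 ages for 0 of 71 members, against 0.0398% of all probe sets, with 2 members at an unadjusted p under 0.05 (Rpl7l1 and Rpl7).

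Among members used as reference genes or known for functions beyond the ribosome, Rplp0, Rps18 and the MDM2-binding Rpl23 were called at 6.1 months, as described above, and the following were not. For Rps6 the rTg4510 minus tTA difference was 0.0075 ± 0.028 (SE) at 4.7 months and 0.026 ± 0.028 at 6.1 months, with 95% intervals of -0.050 to 0.065 and -0.030 to 0.083. Rpl11, which binds MDM2 as part of the 5S particle, gave 0.042 ± 0.039 and 0.074 ± 0.044 at these ages. Rpl13a gave -0.020 ± 0.041 and 0.013 ± 0.044, and Rps19, mutated in Diamond-Blackfan anaemia, gave -0.050 ± 0.042 and -0.018 ± 0.042. Rpl3 gave -0.045 ± 0.028 and -0.029 ± 0.028, and its muscle paralogue Rpl3l 0.0070 ± 0.045 and -0.0073 ± 0.066. The adjusted p of each of these was above the threshold. Rpl5, Rps27 and Rps27a had no probe set under a single symbol and were not analysed here.

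Among related genes, the 2 measured ribosomal proteins whose symbols fall outside the naming rule, Rpsa and Fau, were not called in any comparison of rTg4510 mice with controls. At 6.1 months against tTA they gave -0.041 ± 0.051 and 0.035 ± 0.034 (SE). Of 72 mitochondrial ribosomal proteins, 1 was higher (Mrps6, 0.46 ± 0.092, adjusted p = 0.00088) and 2 were lower (Dap3 at -0.13 and Mrpl19 at -0.12). Of 16 elongation factors 1 was lower (Eef1a2, the neuronal and muscle form of eEF1A, -0.096 ± 0.029, adjusted p = 0.027), and of 29 initiation factors Pabpc1, a poly(A) binding protein, was higher (0.20 ± 0.041, adjusted p = 0.0013) and Eif4b lower (-0.11 ± 0.034, adjusted p = 0.031). Of 35 ribosome biogenesis genes 2 were lower (Bop1 at -0.17 and Bysl at -0.16), and of 16 genes for ribosomal RNA transcription none was called. Over all probe sets 5.54% were higher and 7.08% lower in this comparison.

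Genes of mTOR and S6 kinase signalling, the pathway that acts on TOP messages, were lower in 6 of 17 cases at 6.1 months against tTA, against 7.08% of all probe sets, with a median of -0.096 over the 17 and none higher. Rps6kc1 (-0.29 ± 0.062, SE, adjusted p = 0.0017), Rhebl1 (-0.27 ± 0.067, adjusted p = 0.0076) and Sesn1 (-0.24 ± 0.061, adjusted p = 0.0074) had the largest differences, and Mtor itself gave -0.19 ± 0.046 (adjusted p = 0.0069). Sesn1 and Pdcd4, which was also lower, are inhibitors in this pathway or of translation, so the members that moved do not all act in 1 direction. Against DN mice at 6.1 months 2 of 17 were lower, Pdcd4 and Sesn1, and the median was -0.0034. Between the controls of this age, 3 of 17 were higher in tTA than in DN mice and 0 lower, with a median of 0.062. Over all probe sets 5.25% were called there in either direction. The mean over the 17 genes was 6.79 in rTg4510, 6.86 in tTA and 6.80 in DN mice of 6.1 months. Against DN at that age 7 of 35 ribosome biogenesis genes were lower, against 9.85% of all probe sets, and none higher, led by Utp4 (-0.31 ± 0.041, adjusted p = 2.4e-06), Bop1 (-0.24 ± 0.046, adjusted p = 0.00032) and Nolc1 (-0.21 ± 0.056, adjusted p = 0.0083).

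Markers of several cell types differed between these tissues by more than the ribosomal protein genes did. At 6.1 months all 17 activated microglia markers were higher in rTg4510 than in tTA mice, with a median difference of 1.77, and all 4 CA1 pyramidal markers were lower, with a median of -1.14. All 8 astrocyte markers were higher, with a median of 0.55, and of 9 hippocampal neuron markers 3 were lower and none higher, with a median of -0.21. The mean of the microglia markers ran from 7.37 to 7.98 in the 6 rTg4510 mice and from 5.76 to 6.17 in the 10 tTA mice, without overlap. With that mean as a covariate, 0 of 71 members and 1 of all 22626 probe sets were called against tTA, and the sign of all 6 called members turned. Genotype and this covariate cannot be told apart in these groups. With the choroid plexus mean as a covariate 2 of 71 members were called against tTA, and 11.1% of all probe sets.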

How the data were processed

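RNA of frozen hippocampi was purified on RNeasy columns, amplified and labelled with the Ovation Pico WTA and Encore Biotin kits, and hybridised to Affymetrix mouse expression arrays, one for each of 76 mice. The authors deposited log2 values computed with RMA, named without a version in the submitters' processing notes. The genome build behind the array was not given in the sources used here. An outlying tTA array of 6.1 months was dropped by the study. Whether it is still among the 76 cannot be read from the labels. All 76 were used, and the number of arrays limits the precision.

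Of 22716 probe sets, 90 controls were left out. Symbols came from the platform's annotation, brought up to date by gene identifier for 17977 probe sets, and 18003 had 1 symbol, 287 several and 4336 none listed. The 71 members had 132 probe sets, 34 members had more than 1, and 9 further probe sets that pair a ribosomal protein gene with another symbol were left out. Each fit used limma 3.58.1 (R 4.3.3) on all 22626 probe sets with Benjamini-Hochberg adjustment and two-sided tests: the 3 genotypes of an age in 1 fit at 4.7 and 6.1 months, tTA and DN at 10.7 months, and an F test over the 3 ages of each genotype. The interaction fits held the groups they compare. The tests set each difference against the spread between these mice and take the mice as independent. Nothing says that mice came from separate litters. If littermates share a group, the p-values may be too small.

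A score is the mean of a list's log2 values. Within-group correlations and SDs were computed after each group's mean was taken off. Promoters came from RefSeq. Tables and plots used Python 3.11.15, numpy 2.4.6, pandas 2.3.3 and matplotlib 3.10.9. The test was checked on simulated data in which probe sets varied independently. The changes planted there were larger than the called differences of the members, so the check does not cover differences of this size. The members, the lists and the rule for named genes were chosen with earlier results of these data known. The genes named are, for each pair of genotypes, up to 6 called members in each direction or else the 3 of smallest p, for age the 6 of smallest p, a fixed set of paralogues, stalk proteins and members with known other roles, and up to 3 called genes in each direction of the other lists. Mouse 37 and the further probe sets of named genes were picked after their values were seen, as were the mice 69 and 88 left out beside single results. Alternatives covered the samples in a fit, an unmoderated linear model as in the methods' ANOVA, antilog values, centring, quantile normalisation, a filter on dim probe sets, the choice of probe set, marker scores as covariates, and leaving out mice.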

Additional observations from a re-analysis of the deposited data

Results flagged for a closer look

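The highest and lowest mouse of each group was compared with the rest of its group by Dixon's gap ratio, for the mean of the 71 members and for 12 members described above. With these 13 quantities in 9 groups each, a mouse stood apart 9 times, and chance gives about 1 group in 20. Each was the highest of its group. Mouse 69 (tTA, 4.7 months) stood apart in the mean of the members (10.96, next 10.82), in Rpl22 (9.40, next 9.08) and in Rps18 (11.23, next 11.002). The DN mouse of 10.7 months with the highest mean of the members stood apart in Rpl22 (9.52, next 9.14), Rpl23 (12.13, next 11.99) and Rplp0 (11.27, next 10.88). Rpl22l1 was high in mouse 88 (rTg4510, 1.9 months; 10.84, next 10.53) and in mouse 37 (rTg4510, 4.7 months; 10.82, next 10.42). Rps18 was high in mouse 21 (tTA, 6.1 months; 11.13, next 10.98), the array with the largest Gapdh 3′ minus 5′ difference.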

How the results depend on the processing

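For rTg4510 against tTA at 6.1 months (6 called), the count was 9 in the unmoderated linear model, on antilog values and without dim probe sets, 7 with 1 probe set per gene, 2 with all 9 groups in 1 fit, 1 with only the groups compared, 3 after centring each array on its median, 2 with the choroid plexus mean as a covariate, 0 with the activated microglia mean as a covariate, and 1 of 29 members that have a probe set ending in a plain _at. For rTg4510 against DN at 6.1 months (5 called), these settings gave 2 (all groups), 0 (microglia) and 3 (plain _at), and the count was 8 in the unmoderated linear model, 8 without dim probe sets and 2 without the mice numbered 75 and above. For rTg4510 against DN at 4.7 months (1 called), it was 2 with all groups, after quantile normalisation, without dim probe sets and with 1 probe set per gene, 3 with the mean of a gene's probe sets, and 0 with plain _at probe sets or the microglia mean. Quantile normalisation gave 1 higher (Rps27l) and 1 lower (Rpl9) in that comparison. A single member was called, against 0, for tTA against DN at 6.1 months with the mean of a gene's probe sets or the microglia mean, for age in rTg4510 with all groups or the choroid plexus mean, for age in tTA with all groups, and for age in DN without dim probe sets. With plain _at probe sets 24 of 29 members were lower in tTA than DN at 10.7 months, and 22 of 29 were higher at 10.7 than 4.7 months in DN. The microglia covariate turned the sign of 9 called differences: against tTA at 6.1 months Rplp0 (-0.15), Rps9 (-0.25), Rps27l (-0.28), Rps18 (-0.098), Rps12 (-0.12) and Rpl7a (-0.062), and against DN Rplp0 (-0.19), Rps27l (-0.32) and Rpl23 (-0.19), none of them called. Over all probe sets tested, the share called against tTA at 6.1 months was 12.6% in the unmoderated model, 12.2% on antilog values, 26.1% without dim probe sets, 15.9% with 1 probe set per gene, 13.4% with all groups, 8.81% with only the groups compared, 14% after centring, 11.1% with the choroid plexus mean and 0.00442% with the microglia mean. Against DN at 6.1 months it was 17.8% with all groups, 16.8% in the unmoderated model, 31.4% without dim probe sets, 13.8% without the mice numbered 75 and above and 0.11% with the microglia mean, and against DN at 4.7 months 14.2% with all groups, 13.6% after quantile normalisation, 23.8% without dim probe sets, 17% with 1 probe set per gene, 13.4% with the mean of probe sets and 0.544% with the microglia mean. For the single members called against 0 it was 5.26% and 5.35% (tTA against DN), 4.13% and 3.05% (age in rTg4510), 1.21% (age in tTA) and 1.99% (age in DN). The cause of these changes was not tested. Over these settings the called members gave 159 values, of which 111 kept their direction and stayed past the threshold, 39 kept their direction only and 9 turned.

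Leaving out 1 mouse at a time gave 1 to 7 members for rTg4510 against tTA at 6.1 months, 3 to 7 against DN at 6.1 months, 1 to 2 against DN at 4.7 months, and 0 to 1 for age in rTg4510, with 1 only without mouse 7. The count against DN at 4.7 months was 2 without rTg4510 mouse 35, 39 or 41 or DN mouse 70, 72 or 73. It was 56 to 69 members lower in tTA than DN at 10.7 months and 63 to 70 higher with age in DN, lowest without the DN mouse of the highest mean, an alternative chosen after seeing the data. The remaining counts stayed at 0. For most of these fits the share of all probe sets called is not given, so the counts cannot be set against it. No paired analysis was possible because the mouse numbers are not shared between groups.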
